A study of Mus musculus with 13 samples.

Results

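The regions described here are the 1222 places in the mouse genome where the low-input ATAC protocol of this series gave a peak in at least 4 of its 5 libraries and Omni-ATAC gave none, neither with 5000 nor with 10000 cells. They were chosen from the unified list of 18310 regions deposited for the series, of which they make up 6.67%. They are called the missed regions below, and the Omni-ATAC libraries from 5000 and 10000 cells are called the diluted Omni libraries, because the usual input of that protocol is larger. The rule used the peak calls of 7 libraries, so membership and the peaks of those 7 libraries are a description and carry no test. The third Omni-ATAC library, from 50000 cells, the position of the regions, their sequence and the mRNA of nearby genes were not used by the rule.

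ATAC-seq maps open chromatin with Tn5, a transposase that inserts sequencing adapters where DNA is not covered by nucleosomes. Open sites are mostly promoters, which surround transcription start sites and are often rich in CpG dinucleotides, and enhancers, which lie further away and are bound by factors specific to a cell type. In embryonic stem cells the factors OCT4 (Pou5f1), SOX2, NANOG, KLF and ESRRB bind many of these distal sites, while general factors such as SP, NFY, ETS and NRF1 bind mostly at promoters.

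All libraries came from E14 embryonic stem cells, a mouse line of 129/Ola background grown in serum with leukemia inhibitory factor. In the low-input protocol cells were made permeable with a mild detergent and cut with Tn5, and the mRNA was then caught on oligo-dT beads, so that the ATAC and the mRNA library came from the same cells. Experiment 1 gave libraries from 10000 and 20000 cells, and experiment 2, on another day, gave libraries from 5000, 10000 and 20000 cells. Omni-ATAC was run once each on 5000, 10000 and 50000 cells, so no ATAC comparison between the protocols at a given cell number has replicates on both sides. All 10 embryonic stem cell markers examined, Pou5f1, Sox2, Nanog, Klf4, Zfp42, Esrrb, Dppa5a, Utf1, Tdgf1 and Fgf4, had a mean of at least 10 CPM, the counts of a gene scaled to a library total of 1000000.

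The stretches below are examples from missed regions at promoters, where 26.3% of the missed regions lay. Each line gives the part of a missed region within 250 bases upstream of a RefSeq start site of the named gene (build GRCm38.p6). It is read in the direction of the gene, and regions that reach further, as at Foxa3, are cut. Rpl13, Rps3 and Hnrnpab were among the most highly expressed genes with a missed region at the start site, Id3 is a signalling gene of the listed genes, the mRNA of Sall1, S100a6 and Tex19.1 differed between the experiments, and Foxa3 had one of the widest Omni-ATAC peaks from 50000 cells. Capitals mark matches to the motifs given further on.
Rpl13, chr8:123102239-123102349, plus strand: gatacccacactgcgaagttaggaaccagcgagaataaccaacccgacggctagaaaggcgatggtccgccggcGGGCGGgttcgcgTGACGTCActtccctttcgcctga
Rps3, chr7:99483710-99483867, minus strand: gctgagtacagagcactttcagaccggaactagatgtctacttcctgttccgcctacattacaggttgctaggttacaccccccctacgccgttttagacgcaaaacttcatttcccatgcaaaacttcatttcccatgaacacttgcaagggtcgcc
Hnrnpab, chr11:51606904-51606991, minus strand: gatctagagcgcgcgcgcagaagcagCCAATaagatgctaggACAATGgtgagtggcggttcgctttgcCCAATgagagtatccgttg
Id3, chr4:136143651-136143816, plus strand: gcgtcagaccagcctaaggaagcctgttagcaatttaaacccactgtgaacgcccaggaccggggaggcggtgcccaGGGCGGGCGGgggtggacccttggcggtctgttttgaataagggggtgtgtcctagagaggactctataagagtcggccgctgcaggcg
Sall1, chr8:89043513-89043762, minus strand: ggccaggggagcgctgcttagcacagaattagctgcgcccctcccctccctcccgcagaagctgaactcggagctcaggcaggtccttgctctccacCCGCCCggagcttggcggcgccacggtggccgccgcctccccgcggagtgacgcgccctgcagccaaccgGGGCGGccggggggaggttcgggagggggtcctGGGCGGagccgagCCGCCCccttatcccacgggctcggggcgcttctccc
S100a6, chr3:90612750-90612864, plus strand: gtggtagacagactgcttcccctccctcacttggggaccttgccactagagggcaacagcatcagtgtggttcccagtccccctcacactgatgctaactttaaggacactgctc
Tex19.1, chr11:121145928-121146047, plus strand: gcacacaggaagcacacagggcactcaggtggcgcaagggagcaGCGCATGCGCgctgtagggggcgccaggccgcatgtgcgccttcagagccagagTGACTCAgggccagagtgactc
Foxa3, chr7:19023680-19023789, minus strand: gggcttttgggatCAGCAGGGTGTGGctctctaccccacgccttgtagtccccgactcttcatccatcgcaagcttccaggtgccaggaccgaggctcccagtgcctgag

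In these stretches Rpl13 held an SP motif and a CRE motif, Hnrnpab 2 NFY motifs and a SOX motif, Id3 2 overlapping SP motifs and Sall1 4 SP motifs. Tex19.1 held 2 overlapping NRF1 motifs and an AP-1 motif, and Foxa3 a ZIC motif overlapping a KLF motif. The stretches of Rps3 and S100a6 held none of the runs of letters searched for the 17 motifs. Other forms of these sites were not searched, so they may still hold such sites. A match is a run of letters and was not tested for binding.

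Of 13323 unified regions with a peak in at least 4 low-input lists, the missed regions were 9.17% (95% Wilson interval 8.69% to 9.67%, which covers counting error only, as do all intervals below). Another 6392 regions had a peak in exactly 1 diluted Omni list and 5709 in both, and these served for comparison. Of the missed regions, 758 had a peak in exactly 4 low-input lists and 464 in all 5. Just outside the rule lay 832 regions with 3 low-input lists and no diluted Omni list. Of the diluted Omni lists, that from 5000 cells alone held 148 regions with 4 and 154 with all 5 low-input lists. The list from 10000 cells alone held 2483 regions with 4 and 3607 with all 5. The opposite pattern, both diluted Omni lists and at most 1 low-input list, was met by 42 regions. The 2 shortest low-input lists set most of the border, because of the 758 regions lacking 1 list, 340 lacked a peak in ATAC-5K-exp2 and 294 in ATAC-10K-exp1.

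The low-input lists held 18637 peaks (ATAC-5K-exp2), 18877 (ATAC-10K-exp1), 29870 (ATAC-10K-exp2), 27016 (ATAC-20K-exp1) and 49508 (ATAC-20K-exp2). Omni-ATAC held 9097 peaks from 5000 cells, 31207 from 10000 cells and 95457 from 50000 cells. Omni-ATAC-10K was therefore longer than 4 of the 5 low-input lists, and it covered 84.9% of the unified regions, close to the 84.8% of ATAC-20K-exp1. The read depth of the ATAC libraries is not known here, and the lists carry no height or score, so the width of a peak is the only measure of its size.

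The missed regions had narrow peaks in the smaller libraries. At them the median peak width was 11 bp in ATAC-5K-exp2, 11 bp in ATAC-10K-exp1, 90.5 bp in ATAC-10K-exp2, 50 bp in ATAC-20K-exp1 and 172 bp in ATAC-20K-exp2. The smallest interval in the lists is 9 bp. Counting only the widest peak over each region, 48.2% of the peaks at missed regions had this size in ATAC-5K-exp2 and 2.13% in ATAC-20K-exp2. The shares were lower over regions with 1 diluted Omni list (33.9% and 0.814%) and with both (15.1% and 0.315%). Of all single peaks in these lists, 45.8% and 31.6% had this size, which is an unlike measure, since narrower peaks over a region are counted too. The regions held by both diluted Omni lists had wider peaks in the 5 low-input libraries, with medians of 131, 128, 207, 181 and 325 bp. Only 213 missed regions (17.4%) had a peak of at least 50 bp in 4 or more low-input lists, 484 had such a peak in 2 lists, and 10 in none.

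**Figure D1:**
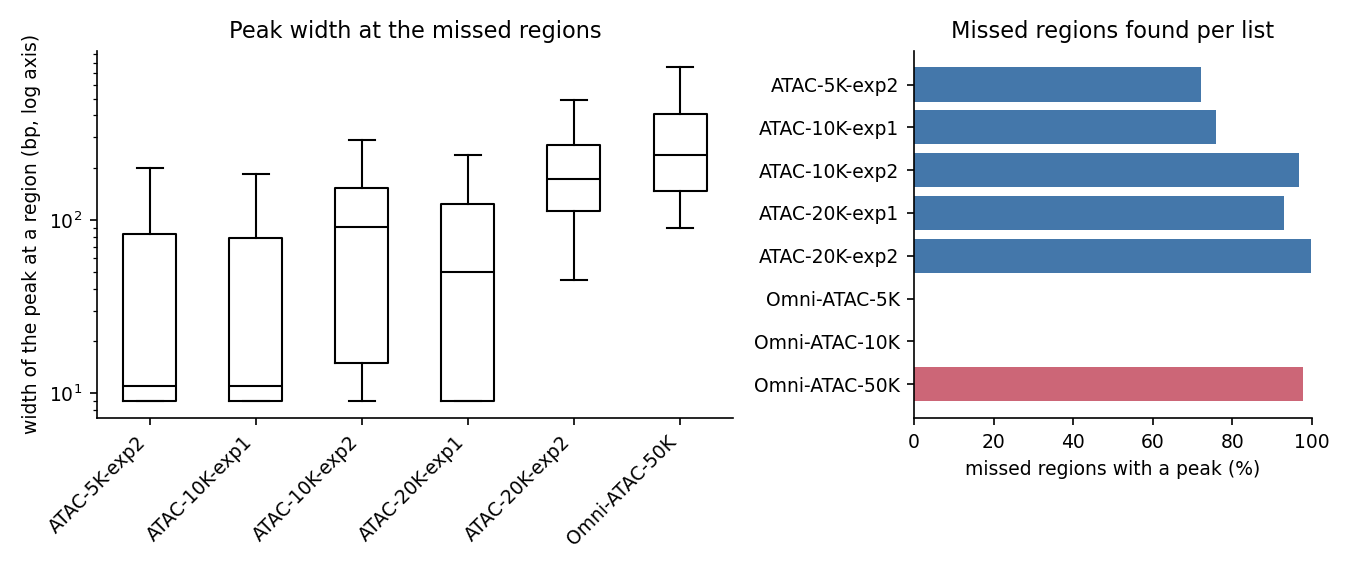
Left, the width of the widest peak over each missed region in the 5 low-input libraries and in Omni-ATAC from 50000 cells (bp, log axis). Lines are medians, boxes span the quartiles and whiskers the 5th to 95th percentiles. Right, the share of the 1222 missed regions with a peak in each library (0 in both diluted Omni libraries by the rule); medians run from 11 bp in ATAC-5K-exp2 and ATAC-10K-exp1 to 235 bp in Omni-ATAC-50K.

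Almost all missed regions were open in Omni-ATAC when 50000 cells were used. A peak from 50000 cells lay over 1195 of 1222 (97.8%, interval 96.8% to 98.5%), against 99.8% of all unified regions, 99.8% of regions with 1 diluted Omni list and 5708 of the 5709 regions with both. These peaks had a median width of 235 bp (quartiles 146 and 409.5 bp), against 379 bp over regions with 1 diluted Omni list and 492 bp over regions with both. The regions themselves had a median width of 123 bp (quartiles 91 and 177 bp), against 171 and 261 bp. The sources used here do not say how the unified list was built, so part of the high share may come from that step, which was not tested.

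Most missed regions lay far from any diluted Omni peak. The median distance to the nearest Omni-ATAC-10K peak was 11036 bp, and 217 regions (17.8%) had one within 1000 bp. For Omni-ATAC-5K the median was 41098.5 bp, and 78 regions (6.38%) had a peak within 1000 bp. A smaller group lay inside a broad open site that diluted Omni did find elsewhere along its length. For 134 of the 1195 (11.2%, interval 9.55% to 13.1%) the peak from 50000 cells also held a peak of a diluted Omni list outside the missed region. At promoters this was the case for 73 of 321 (22.7%), in gene bodies for 19 of 386 (4.92%) and between genes for 42 of 488 (8.61%).

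The 8 missed regions with the widest peaks from 50000 cells all belonged to this smaller group. At Setd7, which encodes a lysine methyltransferase, the region chr3:51560568-51560648 lay 175 bp inside the gene from its start site under a peak of 1423 bp. Its low-input peaks were 14 bp in ATAC-10K-exp1, 9 bp in ATAC-10K-exp2, 71 bp in ATAC-20K-exp1 and 482 bp in ATAC-20K-exp2, with none in ATAC-5K-exp2, and the nearest Omni-ATAC-10K peak was 297 bp away. At Foxa3, a forkhead factor of liver and endoderm, the region chr7:19023680-19023935 lay 141 bp upstream under a peak of 1315 bp, and both diluted Omni libraries had a peak 405 bp away. The gene itself was hardly transcribed, at a mean of 1.42 CPM.

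H1f3 (linker histone H1.3, chr13:23555361-23555451, peak of 1353 bp) and Dennd5b (a DENN-domain protein, chr6:149101517-149101624, 1346 bp) had their missed region just inside the gene. Mapkapk3, a kinase downstream of p38, had it over the start site (chr9:107289850-107289966, 1151 bp). Cdc73, a subunit of the PAF1 transcription elongation complex, had it 299 bp upstream (chr1:143703192-143703263, 1108 bp). The other two lay between genes, 14467 bp upstream of Nectin1, a cell adhesion gene (chr9:43729787-43730109, 1301 bp), and 22353 bp from the start of 4930550C17Rik (chr13:56221507-56221587, 1087 bp). The Nectin1 region had peaks of 323, 376 and 160 bp in ATAC-5K-exp2, ATAC-10K-exp1 and ATAC-10K-exp2, of 9 bp in ATAC-20K-exp1 and of 232 bp in ATAC-20K-exp2.

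The other 27 missed regions had no Omni-ATAC peak at any cell number. None lay at a promoter, 7 were in gene bodies and 20 between genes, and 23 had a peak in all 5 low-input lists. Of those 23, the narrowest of the 5 peaks had a median width of 20 bp and the widest of 124 bp. Widths in the 5 lists lay within 10 bp of each other in 6 of the 23 (26.1%), and in 1 of the 441 regions (0.227%) that had all 5 lists and a peak from 50000 cells. The region chr5:36630550-36630756, inside D5Ertd579e, had peaks of 210, 209, 209, 207 and 205 bp in ATAC-5K-exp2, ATAC-10K-exp1, ATAC-10K-exp2, ATAC-20K-exp1 and ATAC-20K-exp2. The region chr8:83756832-83756985, 15521 bp upstream of the adhesion receptor gene Adgre5, had peaks of 153, 154, 152, 153 and 155 bp in the same order.

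The other regions among the 5 widest of the 27 varied more. At chr11:98776942-98777118, 1565 bp upstream of Nr1d1, a nuclear receptor of the circadian clock, the peak was 177 bp in 3 lists, 14 bp in ATAC-20K-exp1 and absent in ATAC-5K-exp2. At chr10:77182901-77183111, 16371 bp upstream of the collagen gene Col18a1, it ran from 9 bp in ATAC-10K-exp1 to 328 bp in ATAC-10K-exp2. At chr13:65485043-65485240, where the nearest start site (Zfp369) was 206189 bp away, it ran from 9 bp in ATAC-5K-exp2 to 421 bp in ATAC-20K-exp2.

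A cluster of 6 of the 27 lay within 21743 bp at the start of the assembled chromosome 9 (chr9:3003386-3025128). The 5 low-input lists held 29 to 33 peaks in this stretch, Omni-ATAC-5K 20, Omni-ATAC-10K 9 and Omni-ATAC-50K 21. The stretch was singled out after its values were seen. Without it, 98.3% of the missed regions had a peak from 50000 cells.

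The missed regions were mostly distal sites, with a lower share of promoters than both comparison sets. A transcription start site (TSS), taken as the 5′ end of a gene in the count table, lay within 1000 bp of 321 of 1222 (26.3%, interval 23.9% to 28.8%). The share was 40.0% (38.8% to 41.2%) among regions with 1 diluted Omni list, 57.2% (55.9% to 58.4%) among those with both and 41.6% among all unified regions. In contrast, 393 missed regions (32.2%) lay in gene bodies, against 26.2% and 17.6%, and 508 (41.6%) between genes, against 33.8% and 25.2%. A distance of more than 10000 bp from any TSS was found for 52.7% of the missed regions, against 44.2% and 29.9%. The intervals of the 3 sets do not overlap for any of these shares. The 42 regions of the opposite pattern, both diluted Omni lists and at most 1 low-input list, had a promoter share of 26.2% (15.3% to 41.1%). This was close to that of the missed regions, so a low share was not particular to them. Regions are not replicates and each list is 1 library, so no test over samples was possible.

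**Figure D2:**
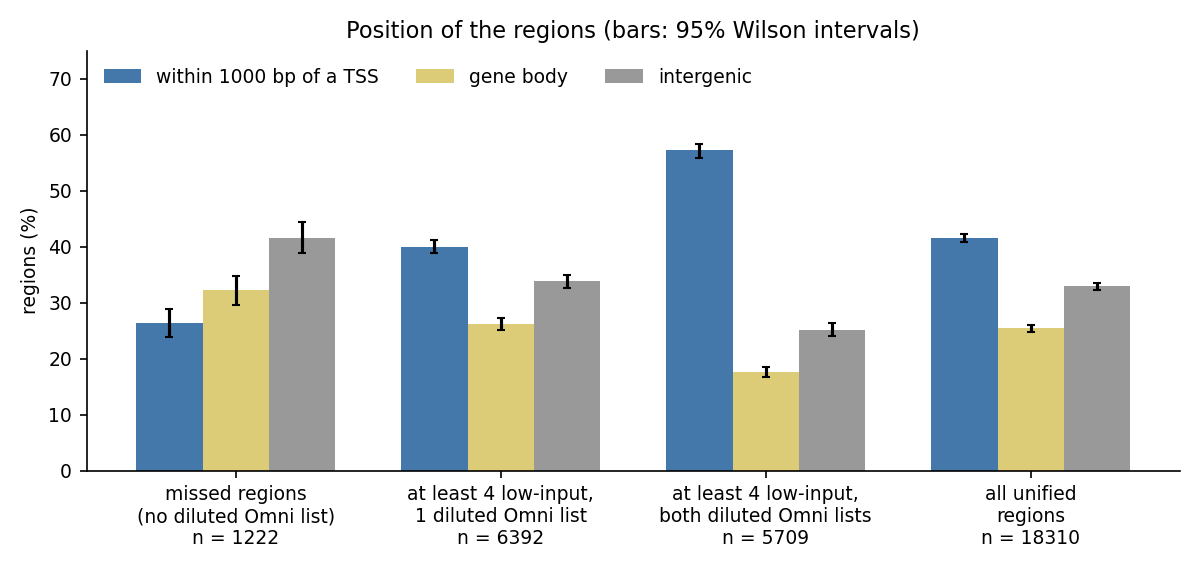
Share of regions (%) within 1000 bp of a TSS, in a gene body or intergenic, for the missed regions, the 2 comparison sets and all unified regions; error bars are 95% Wilson intervals. The promoter share is 26.3% for the missed regions, 40.0% with 1 diluted Omni list and 57.2% with both.

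The order of the promoter shares was the same in each class of width. Among regions of 50 to 100 bp it was 22.4% for missed regions, 32.0% with 1 diluted Omni list and 40.8% with both. Among those of 100 to 200 bp it was 25.9%, 38.2% and 48.0%, and from 200 bp upward 34.6%, 45.2% and 62.7%. Of all regions with at least 4 low-input lists, the missed ones made up 21.1% in the narrowest class and 3.34% in the widest. Away from promoters, the median distance of missed regions to the nearest TSS was 21926 bp, between the 24837 and 21696.5 bp of the other sets.

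The pluripotency, signalling, chromatin and housekeeping lists were searched for genes with a missed region at the TSS. These were 1 of 25 pluripotency genes (Pou5f1), 2 of 21 signalling genes (Id3 and Spry4), 0 of 20 chromatin genes and 1 of 15 housekeeping genes (Rps3). For comparison, 9, 15, 13 and 10 genes of these lists had any unified region at the TSS. Over all genes, 355 of 24470 had a missed region there, and 8129 any unified region.

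Pou5f1 encodes OCT4, the central factor of the pluripotent state. Its missed region, chr17:35504945-35505135, lay 897 bp upstream of the TSS. The peaks were 9 bp in ATAC-5K-exp2, 32 bp in ATAC-10K-exp1, 191 bp in ATAC-10K-exp2 and 292 bp in ATAC-20K-exp2, with none in ATAC-20K-exp1, and 492 bp in Omni-ATAC-50K. The nearest Omni-ATAC-10K peak was 805 bp away. Both libraries with a wide low-input peak came from experiment 2. They also gave the longest low-input lists (29870 and 49508 peaks), and ATAC-5K-exp2, of the same experiment, had only the 9 bp peak.

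Id3, an inhibitor of basic helix-loop-helix factors and a target of BMP signalling, had its region (chr4:136143651-136143816) 6 bp upstream of the TSS. The peaks were 9 bp in ATAC-5K-exp2 and then 217, 155, 155 and 150 bp in ATAC-10K-exp1, ATAC-10K-exp2, ATAC-20K-exp1 and ATAC-20K-exp2, and 175 bp in Omni-ATAC-50K. The open site at Id3 was thus about as wide in 4 low-input libraries as with 50000 cells, while the nearest diluted Omni peak was 3008 bp away. Spry4, an antagonist of growth factor signalling, had its region (chr18:38602066-38602182) 798 bp upstream, with peaks of 116 bp in ATAC-5K-exp2 and 775 bp in ATAC-20K-exp2, 9 bp in ATAC-10K-exp2 and ATAC-20K-exp1 and none in ATAC-10K-exp1. A diluted Omni peak lay elsewhere within 1000 bp of the Spry4 TSS.

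Rps3, a protein of the small ribosomal subunit, had its region (chr7:99483672-99483867) over the TSS. The peaks were 9 bp in ATAC-5K-exp2, 194 bp in ATAC-10K-exp1 and ATAC-10K-exp2, 11 bp in ATAC-20K-exp1, 125 bp in ATAC-20K-exp2 and 205 bp in Omni-ATAC-50K. Although this is the promoter of one of the most abundant mRNAs, the nearest Omni-ATAC-10K peak was 16536 bp away. Among distal regions, chosen after their values were seen, some had a listed gene as their nearest TSS, such as Klf5, Sall4, Id1 and Actb. The widest of these 4 was chr14:99339706-99339976, 41015 bp downstream of the TSS of the pluripotency factor gene Klf5, with peaks of 258, 116, 116, 116 and 669 bp in ATAC-5K-exp2, ATAC-10K-exp1, ATAC-10K-exp2, ATAC-20K-exp1 and ATAC-20K-exp2 and of 784 bp in Omni-ATAC-50K. Diluted Omni peaks lay nearby, 210 bp away in Omni-ATAC-10K and 380 bp away in Omni-ATAC-5K.

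The missed regions were spread over all chromosomes of the unified list, with 1 of the 4 regions in at least 4 low-input lists on chromosome Y. Their share of regions with at least 4 low-input lists was, leaving out chromosome Y, highest on chromosome 14, with 57 of 365 (15.6%, interval 12.3% to 19.7%), and lowest on chromosome 15, with 47 of 755 (6.23%, 4.71% to 8.18%), against 9.17% overall. Chromosome 14 held 3.07% to 3.22% of the peaks in the 3 low-input libraries of experiment 2, 2.37% and 2.51% in those of experiment 1 and 2.67% and 2.66% in the diluted Omni lists. For chromosome 15 the shares were 5.05% to 5.17% in experiment 2, 6.17% and 6.06% in experiment 1, and 3.9% and 6.0% in Omni-ATAC-5K and Omni-ATAC-10K. The part of these differences in the share of missed regions was not tested.

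**Figure D3:**
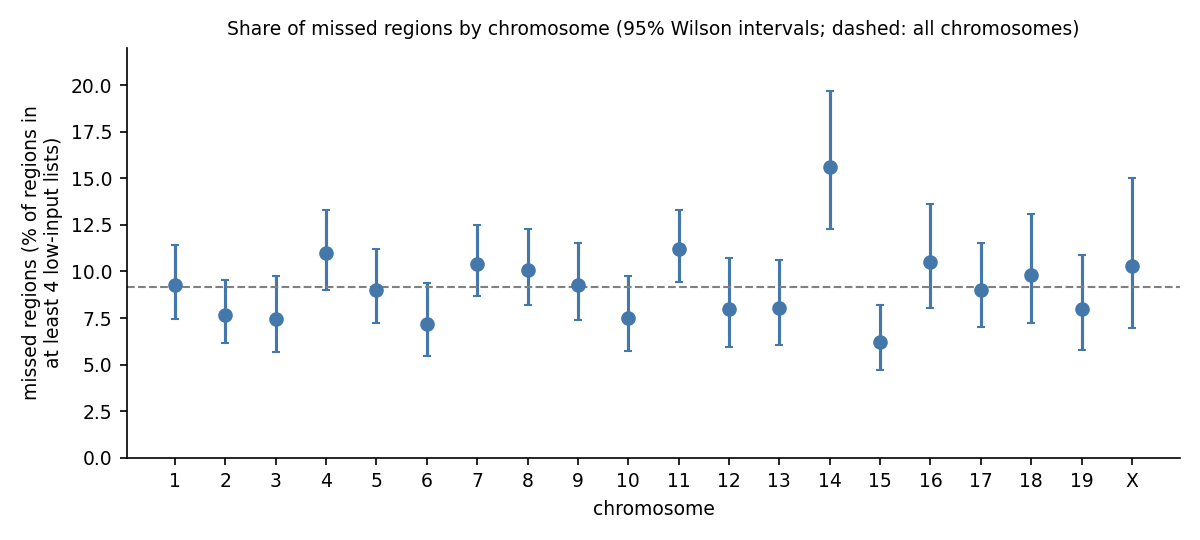
Missed regions as a share (%) of the regions with at least 4 low-input lists, by chromosome; bars are 95% Wilson intervals and the dashed line is the share over all chromosomes, 9.17%; chromosome Y, with 4 such regions, is not drawn. Chromosome 14 is highest at 15.6% and chromosome 15 lowest at 6.23%.

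Most promoters with a missed region were CpG-rich. RefSeq windows of 300 bases, from 250 before to 50 after a start site, were used. Of 32817 such windows, 248 overlapped a missed region. Their median GC content was 60.5%, against 62.3% with 1 diluted Omni list, 63.0% with both and 52.7% in all windows. A GC content of at least 55% with a CpG ratio (observed over expected) of at least 0.6 was met by 61.3% of the windows (55.1% to 67.1%), against 70.2%, 76.5% and 30.3%. The windows of Rpl13 and Rps3 had GC contents of 52.7% and 51.3%, that of Sall1 70.0% and that of S100a6 49.3%.

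General promoter motifs were searched on both strands of the whole windows, which reach beyond the missed regions. The SP motif GGGCGG was in 65.7% of the windows with a missed region, 70.2% with 1 diluted Omni list, 76.1% with both and 35.6% of all windows. The ETS motif CCGGAAG was in 19.0%, 23.7%, 20.1% and 8.86%, and the YY1 motif ATGGCGG in 10.1%, 8.74%, 9.42% and 4.05%. The NFY motif CCAAT was in 38.3% (32.5% to 44.5%) of windows with a missed region, 43.6% with 1 diluted Omni list and 56.8% (55.2% to 58.5%) with both, against 37.4% of all windows. Its interval with 1 diluted Omni list (41.6% to 45.6%) overlapped that of the missed regions. The ZIC motif CAGCAGG was in 14.1% (10.3% to 19.0%), against 9.96% (8.82% to 11.2%) with 1 diluted Omni list, 9.09% (8.17% to 10.1%) with both and 10.5% (10.2% to 10.9%) of all windows, and the first and last of these intervals overlapped that of the missed regions. Inside the missed regions themselves matches were fewer. Stretches of a missed region upstream of a start site, which are shorter than the windows, numbered 239, with chromosome 18 left out. Of these, 102 held the SP motif, 50 NFY, 26 ETS, 14 ZIC and 5 YY1, and no stretches of equal length were compared.

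Of the remaining motifs, NRF1 (GCGCATGCG) was in 4.44% against 1.75% of all windows, with 4.81% and 3.75% in the comparison sets. The E-box CACGTG was in 12.5% against 7.15%, with 11.9% and 9.59%, and CRE (TGACGTCA) in 2.82% against 1.79%, with 3.59% and 3.81%. CTCF (GGNGGCAG) was in 12.9% against 12.6%, KLF (GGGTGTGG) in 4.44% against 3.56%, and TEAD (GGAATG) in 12.9% against 14.7%, with 11.1% and 10.3% in the windows of the comparison sets. SOX (CATTGT) was in 8.87% (5.93% to 13.1%), against 12.6% of all windows, 6.71% with 1 diluted Omni list and 5.6% (4.88% to 6.43%) with both, and the intervals overlapped. AP-1 (TGANTCA) was in 4.84% (2.79% to 8.27%), against 7.81%, 4.43% and 2.73% (2.23% to 3.33%), with intervals that overlap. AGATAA, searched for zinc-finger factors of the GATA family, was in 4.03% (2.2% to 7.26%), against 11.2% of all windows, 5.49% with 1 diluted Omni list and 3.43% with both, so that the low share was also found in the comparison sets. The OCT octamer ATGCAAAT was in 3 of 248 windows (1.21%, against 1.74%), and the composite OCT-SOX motif TTGTNATGC and the ESRRB motif TCAAGGTCA were in none (up to 1.53%), against 0.731% and 0.424% of all windows, a share too low for a difference to be detectable in 248 windows. These windows hold promoters, and the sequence of the missed regions in gene bodies and between genes was not analysed here, apart from 25 that overlapped a window.

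**Figure D4:**
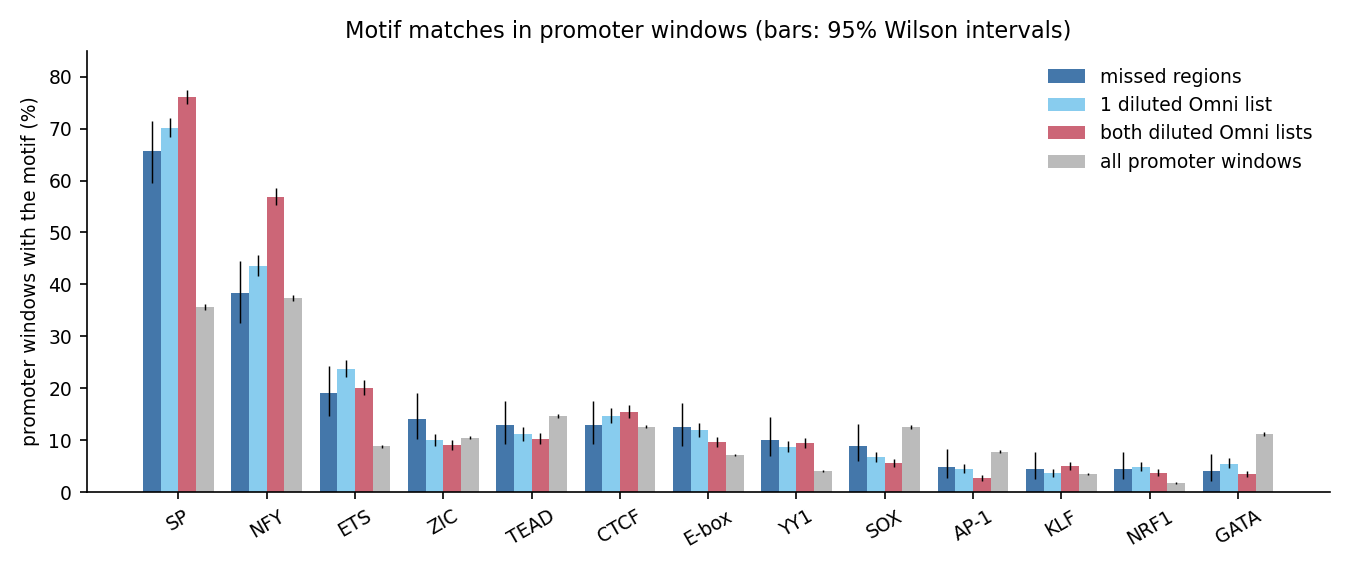
Share of RefSeq promoter windows (%) with a match to each motif, for windows overlapping a missed region (248), a region of the comparison sets, and all windows (32817); error bars are 95% Wilson intervals. SP is in 65.7% of windows with a missed region, and NFY in 38.3% against 56.8% with both diluted Omni lists.

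The mRNA libraries, made from the same cells, showed that most genes with a missed region at the TSS were transcribed. Total counts ran from 13727122 to 20426252 per library over 24470 genes. A missed region lay within 1000 bp of the TSS of 355 genes, and for 239 of them (67.3%) no diluted Omni peak of any kind lay there, while all 355 had a peak in Omni-ATAC-50K. A mean of at least 1 CPM was reached by 273 of the 355 (76.9%, interval 72.2% to 81.0%). The share was 82.3% with 1 diluted Omni list, 86.1% with both, 29.3% for genes with no unified region at the TSS and 47.0% for all genes. At least 100 CPM was reached by 43 genes with a missed region (12.1%, interval 9.12% to 15.9%), against 11.5% and 12.7%. The median level was 9.89 CPM, against 11.0 and 14.0, and in each of the 5 libraries it was between 9.1 and 9.6 CPM for genes with a missed region. In bulk samples, fewer cells expressing a gene and less RNA per cell cannot be told apart.

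The 10 most abundant of these mRNAs were those of Rpl13, Rps14, Rps3, Rpl30, Rpl10a, Rpl28, Hint1, Tpt1, Hnrnpab and Eif2s2. The first 6 encode ribosomal proteins. Rpl13, of the large ribosomal subunit, had 8973, 6723, 8140, 6245 and 8127 CPM in mRNA-5K-exp2, mRNA-10K-exp1, mRNA-10K-exp2, mRNA-20K-exp1 and mRNA-20K-exp2. Its region, chr8:123102239-123102450, spanned the TSS with peaks of 202 bp in ATAC-5K-exp2, 212 bp in ATAC-10K-exp2, 169 bp in ATAC-20K-exp1 and 433 bp in ATAC-20K-exp2, none in ATAC-10K-exp1, and 212 bp in Omni-ATAC-50K. Rps3 had 3820, 3980, 3838, 3909 and 4232 CPM in that order, with overlapping values in the 2 experiments. Eif2s2, the beta subunit of initiation factor eIF2, had 600.9, 588.5, 586.0, 563.0 and 506.6 CPM and a region of 189 bp over its TSS (chr2:154892792-154892980). Hnrnpab, an RNA-binding protein, had 599.3, 602.7, 728.4, 636.2 and 739.0 CPM. For Rpl30 and Hnrnpab, and for Foxa3 among the promoters printed above, a diluted Omni peak also lay within 1000 bp of the TSS, outside the missed region. Ribosomal protein genes have many near-identical processed copies in the genome, and how reads matching several places were counted is not given, so these levels are uncertain.

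Experiment 2 was compared with experiment 1 over the 4 mRNA libraries from 10000 and 20000 cells. Of all 12523 genes tested, 12.5% were called by edgeR's quasi-likelihood test at an adjusted p below 0.05, 5.75% as higher and 6.76% as lower in experiment 2. Of 294 tested genes with a missed region at the TSS, 34 (11.6%) were called, 21 higher (7.14%) and 13 lower (4.42%), which is near the share over all genes. Their median log2 fold change was 0.059, against 0.001 over all genes. Whether experiments 1 and 2 used separate cultures is not given in the labels, beyond the different days.

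Of the 21 rises, 8 were on chromosome 8. Of 23 tested genes with a missed region on chromosome 8, 8 rose (34.8%) and 0 fell, and on the other chromosomes 13 of 271 rose (4.8%) and 13 fell. Over all genes, 30.3% of the 692 on chromosome 8 rose, against 4.31% elsewhere, and the median log2 fold change there was 0.46. Chromosome 8 held 6.66% to 7.42% of the ATAC peaks in experiment 2 and 5.13% to 5.41% in experiment 1 and in the 3 Omni-ATAC lists. Of the missed regions' share by chromosome, chromosome 8 had 10.1%, with an interval of 8.21% to 12.3% that includes 9.17%.

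The largest rises at a mean of at least 10 CPM, with values that did not overlap between the experiments, were those of Anxa2, Sall1, S100a6, Rbmxl1 and Atp6v1b2, of which Sall1, Rbmxl1 and Atp6v1b2 lie on chromosome 8. Sall1, a zinc-finger factor, had 24.99 and 23.42 CPM in experiment 1 (10000 and 20000 cells) and 64.29 and 54.49 CPM in experiment 2, with 61.8 CPM in the library from 5000 cells that did not enter the fit. The log2 fold change was 1.3 ± 0.162 (SE, adjusted p = 4.41e-06, edgeR's quasi-likelihood test). By the TSS of the count table, Sall1 had a missed region 400 bp downstream of the TSS (chr8:89043469-89043762) and another 1056 bp downstream (chr8:89042959-89043106). By RefSeq, which has further start sites for Sall1 inside that gene model, parts of both lie upstream of a start site, and the stretch printed above is upstream in this sense only. No diluted Omni peak lay within 1000 bp of the Sall1 TSS of the count table, while Rbmxl1 had one. The first region had peaks of 9, 9, 309, 144 and 357 bp in ATAC-5K-exp2, ATAC-10K-exp1, ATAC-10K-exp2, ATAC-20K-exp1 and ATAC-20K-exp2, and of 343 bp in Omni-ATAC-50K.

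Anxa2, a calcium-dependent membrane-binding protein, had 6.338 and 12.04 CPM in experiment 1 and 23.92 and 24.04 CPM in experiment 2 (log2 fold change 1.38 ± 0.243, adjusted p = 0.000343, edgeR's quasi-likelihood test). S100a6, a small calcium-binding protein, had 53.62 and 44.9 CPM against 120.2 and 95.17 CPM (1.13 ± 0.149, adjusted p = 9.21e-06, edgeR's quasi-likelihood test). Both genes lie outside chromosome 8. The S100a6 region (chr3:90612750-90612864) was 30 bp upstream of the TSS with peaks of 101, 115, 115 and 407 bp in ATAC-10K-exp1, ATAC-10K-exp2, ATAC-20K-exp1 and ATAC-20K-exp2 and none in ATAC-5K-exp2. Rbmxl1, a retrogene for an RNA-binding protein, had a log2 fold change of 0.94 and Atp6v1b2, a subunit of the vacuolar proton pump, of 0.81. Rpl13 was higher by 0.33 ± 0.10 (adjusted p = 0.0237, edgeR's quasi-likelihood test), but the call was lost with cell number as a term (adjusted p = 0.0718) and without either library of experiment 1.

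The largest falls at a mean of at least 10 CPM, again with values that did not overlap between the experiments, were those of Crlf2, Zrsr1, Tex19.1, Rdm1 and Alg3. Crlf2, Zrsr1 and Rdm1 also had a diluted Omni peak within 1000 bp of the TSS. Crlf2, the receptor of the cytokine TSLP, had 20.4 and 20.48 CPM in experiment 1 and 8.835 and 9.595 CPM in experiment 2 (log2 fold change -1.15 ± 0.215, adjusted p = 0.000712, edgeR's quasi-likelihood test). Zrsr1, a retrogene for a splicing factor, had 33.36 and 37.94 CPM against 16.12 and 16.79 CPM (-1.11 ± 0.179, adjusted p = 0.000129, edgeR's quasi-likelihood test). That the values of the 2 experiments lay apart was a condition for naming these genes. Rdm1, a gene with a RAD52 motif, fell by 0.69 on the log2 scale. Tex19.1, a germline and stem cell gene linked to the control of retrotransposons, had 13.7 and 18.53 CPM against 7.029 and 9.302 CPM, and its call (adjusted p = 0.0093, edgeR's quasi-likelihood test) was lost without mRNA-10K-exp2 (0.135) or without mRNA-20K-exp1 (0.0715). Alg3, a mannosyltransferase of N-glycan assembly, had 39.63 and 46.1 CPM against 31.15 and 26.0 CPM. Its adjusted p of 0.0216 (edgeR's quasi-likelihood test) became 0.055 with DESeq2, 0.143 without mRNA-20K-exp1 and 0.221 without mRNA-20K-exp2.

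**Figure D5:**
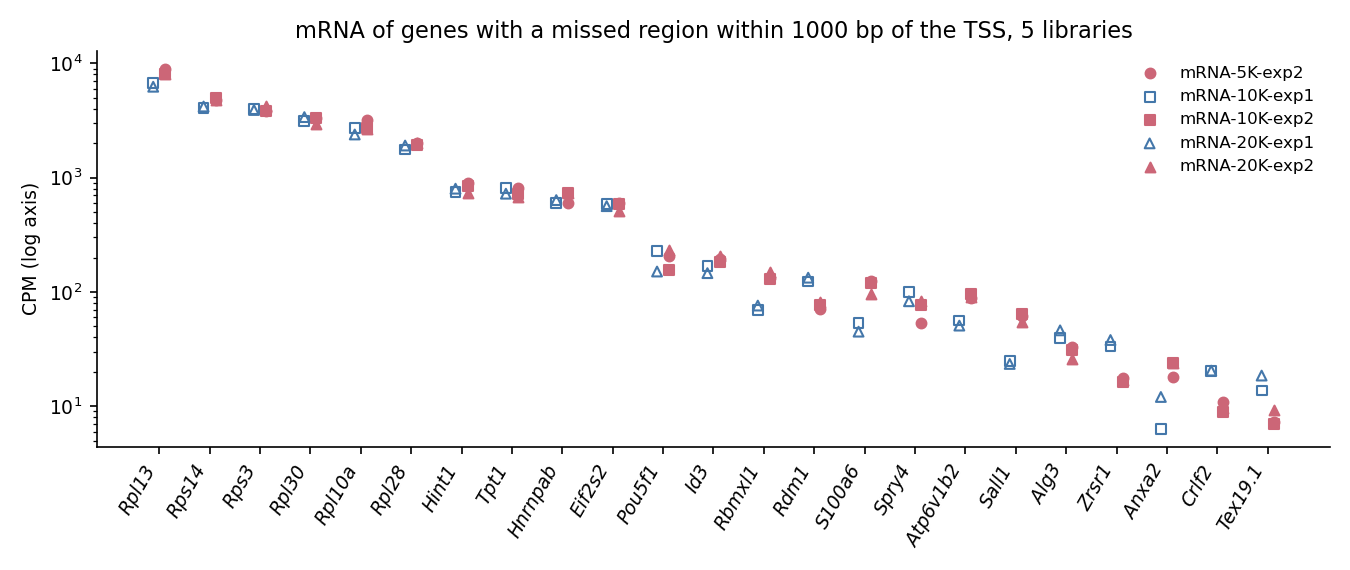
CPM (log axis) of the named genes with a missed region within 1000 bp of the TSS, in each of the 5 mRNA libraries; open blue symbols are experiment 1, filled red symbols experiment 2, and the shape gives the number of cells. The 2 open symbols lie below all 3 filled ones for Sall1 and above them for Crlf2, while those of Rps3 and Pou5f1 overlap.

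Sums of some markers of other cell types differed between the experiments. The sum of 5 fibroblast markers (Col1a1, Col1a2, Col3a1, Thy1 and Dcn) was 31.4 and 34.7 CPM in experiment 1 and 7.54 to 10.0 CPM in experiment 2, with Col3a1 at 0 in every library. Nearly all of this sum was Thy1, at 29.2 and 33.9 CPM in experiment 1 and 6.77 to 9.78 CPM in experiment 2, while Col1a1 was at 0.119 to 1.89 CPM and Col1a2 and Dcn at 0 in 3 and 4 of the 5 libraries. The sum of 5 primitive endoderm markers (Gata4, Gata6, Sox17, Pdgfra and Foxa2) was 6.05 and 6.02 CPM against 1.42 to 1.85 CPM. Of these, Gata6 (3.21 and 1.47 against 0 to 0.294 CPM) and Pdgfra (1.24 and 2.54 against 0.245 to 0.835 CPM) did not overlap between the experiments, at no more than 44 counts per library, and Gata4, Sox17 and Foxa2 did. How often values do not overlap over all genes was not counted, so no weight rests on this. The sum of 5 neural markers went the other way, with 23.7 and 21.4 CPM in experiment 1 and 31.4 to 38.6 CPM in experiment 2. By edgeR's quasi-likelihood test, 1 of 2 tested fibroblast markers and 1 of 2 tested primitive endoderm markers were called lower in experiment 2, and 1 of 5 neural markers higher. Over all genes tested, 6.76% were called lower and 5.75% higher, and so few markers cannot be set against these shares. Mesendoderm markers were at 1.68 to 4.41 CPM and trophoblast markers at 29.8 to 33.7 CPM, with overlapping experiments. Their part in the changes of genes with a missed region was not tested.

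The genes of the fixed lists with a missed region did not pass the test. Pou5f1 had 229.5 and 150.8 CPM in experiment 1 and 154.8 and 233.2 CPM in experiment 2, so the 2 experiments overlapped. Id3 had 167.5 and 146.0 CPM against 182.2 and 206.5 CPM, without overlap (log2 fold change 0.31 ± 0.124, adjusted p = 0.106, edgeR's quasi-likelihood test). Spry4 had 100.3 and 82.84 CPM against 77.51 and 83.23 CPM. Over the whole lists, 4 of 25 tested pluripotency genes, 4 of 20 signalling genes, 2 of 20 chromatin genes and 4 of 14 housekeeping genes rose and 1 of each list fell, beside 5.75% and 6.76% of all genes.

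Between 20000 and 10000 cells no gene was called. Of all 12523 genes 0.0% passed in edgeR's quasi-likelihood test, and 0 of the 294 genes with a missed region did. At an unadjusted p below 0.05 there were 101 genes in all and 5 with a missed region, and DESeq2 called 0. With the experiment as a block, edgeR called 4 genes, none of which had a missed region at the TSS.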

How the data were processed

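The series holds 8 ATAC libraries and 5 mRNA libraries of E14 cells, grouped by the sample titles. Per the submitters' processing notes, cutadapt, Bowtie2 2.1.0, SAMtools 1.3.1, Picard, bedtools 2.24.0, MACS2 2.1.1, STAR 2.5, featureCounts and Subread 1.5.0-p1 were used, with build mm10. The peak threshold, the filters, the use of strand and the way the unified list was made are not given in the sources used here. The authors deposited peaks as interval positions without a score, and gene counts as whole numbers per gene, raw per the file headers and values. No column of the count table lay outside the 5 libraries.

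A region counted as found where it shared at least 1 bp with a peak, and the peak width given is that of the widest such peak. CPM are the deposited counts scaled here to each library's total. A region was called a promoter within 1000 bp of a TSS, otherwise gene body or intergenic. Intervals are 95% Wilson intervals. Differences between mRNA libraries were tested with edgeR 4.0.16 (R 4.3.3, TMM, filterByExpr, glmQLFit and glmQLFTest, Benjamini-Hochberg adjustment over all genes tested, threshold 0.05) on the 4 libraries from 10000 and 20000 cells. P-values measure the spread between these libraries, which may be technical, and the 5000-cell library was left out because it has no replicate. DESeq2 1.42.0, other size factors, other filters, a cell number term or a block, and leaving out each library were tried, as were other overlaps, TSS distances and list minimums. Experiment numbers pair the libraries, since the 2 experiments took place on different days, per the series' design text. Across 11575 genes, which are not independent, the deviations of the 10000-cell and the 20000-cell libraries from their group means had r = 0.523. The scripts (matplotlib 3.10.9, pandas 2.3.3, numpy 2.4.6, scipy 1.17.1, Python 3.11.15) were tested on simulated data.

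The named regions are the 8 with the widest 50000-cell Omni-ATAC peak, the 5 widest without one, and those at the TSS of a listed gene. The named genes include the 10 with the highest mean CPM, and the 5 largest rises and falls among called genes whose mean reached 10 CPM and whose experiments did not overlap. The listed genes with a missed region at the TSS (Pou5f1, Id3, Spry4 and Rps3) were named too. The members and lists were chosen with earlier results of these data known. Printed sequences are the parts of regions inside RefSeq promoter windows and upstream of the start site. They stand in place of the planned 300 bases around the middle of the regions, since a genome sequence was not used here.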

Additional observations from a re-analysis of the deposited data

Results flagged for a closer look

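For 6 of the named genes the difference between the experiments pointed one way at 10000 cells and the other way at 20000 cells. Each direction rests on 1 library per experiment and cell number, and the difference between them was not tested. Pou5f1 had a log2 ratio of experiment 2 over experiment 1 of -0.569 at 10000 cells and 0.629 at 20000 cells, a gap of 1.2. For Spry4 the gap was 0.379 (-0.372 and 0.00675). For the ribosomal protein genes it was 0.167 for Rps3, -0.256 for Rpl30 and 0.18 for Rpl10a, and for Hint1 it was -0.312.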

How the results depend on the processing

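The number of missed regions was 1220 when 50% of the shorter interval had to overlap, with 1139 shared, 1221 when a gap of 100 bp counted as overlap, 464 when all 5 low-input lists were required and 2054 when 3 sufficed. Without 1 low-input library, requiring 3 of the other 4, or without 1 diluted Omni list (chosen after seeing the data), the number ran from 1229 to 7312. It was 1844 without ATAC-5K-exp2, 1835 without ATAC-10K-exp1 and 7312 without Omni-ATAC-10K, so that the last list decides most of the membership. With peaks under 50 bp left out of every list, 1100 regions met the rule, but only 213 were shared with the 1222, and 7 of the 17 named regions remained. The share with a 50000-cell peak was then 96.6%, and it was 95% with all 5 lists, 98.6% with 3, and 97.6% to 99.6% without 1 library. The promoter share was 35.2% without peaks under 50 bp, against 51.9% and 67.5% in the comparison sets built likewise. It was 23.4% at a TSS distance of 500 bp, 31.7% at 2500 bp, and 25.3% to 38.4% without 1 library, the highest without Omni-ATAC-10K.

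The share of genes with a missed region at the TSS was 76.9% at 1 CPM, 49.6% at 10 CPM, and 77.5% to 77.7% without 1 mRNA library. Without 1 library, the genes called between experiments numbered 803 to 1817, against 1567, with 1018 without mRNA-10K-exp1, 803 without mRNA-10K-exp2 and 869 without mRNA-20K-exp2. Those with a missed region numbered 16 to 42, against 34, with 19 without mRNA-10K-exp2, 16 without mRNA-20K-exp2 and 23 with DESeq2. Between cell numbers, 2 genes were called with no filter on low counts and 4 with the experiment as a replicate block, which changed no call of a named gene, and 0 without any 1 library. The causes were not tested. Of the named genes' values under the alternatives, 166 kept their direction and side of the threshold, 8 lost the call, 2 gained it (both for Rps14) and 8 turned direction without passing the test. These were of Pou5f1 (log2 fold change 0.0283, and -0.283 to 0.364 without 1 library), Rps3 (0.0334, and -0.0255 to 0.108), Rpl30 (-0.0552, and -0.13 to 0.0312), Hint1 (0.0355, and -0.0711 to 0.15) and Eif2s2 (-0.0737, and -0.178 to 0.0394). The unknown ATAC depth and the 9 bp intervals limit every peak count.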

Other observations

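Of the hairpins with an entry of their own in the RefSeq microRNA table, which is not complete, 6 lay within 1000 bp of a missed region, the nearest being Mir5131, 40 bp from chr14:45658093-45658279. The others were Mir7654, Mir7071, Gm51264, Mir5135 and Mir6976, at 293 to 997 bp. Mir124a-1 and Mir7672, microRNA genes of the count table outside this count, also had a missed region within 1000 bp of the TSS. Over the 393 missed regions in gene bodies, the host gene had a median of 5.78 CPM, against 4.87 and 5.03 CPM for regions with 1 and both diluted Omni lists, and a gene with several regions counts once for each. The host reached at least 10 CPM for 41.5% of these regions (interval 36.7% to 46.4%), against 35.5% (33.3% to 37.9%) and 38.6% (35.7% to 41.7%), with overlapping intervals. Among the 7 gene-body regions with no Omni-ATAC peak at any cell number, the host levels ran from 0.0196 CPM for Ppp2r2b to 669 CPM for Prdx2, a peroxiredoxin that removes hydrogen peroxide.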
